A study of Homo sapiens with 4 samples.

Results

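The interferon-stimulated genes are genes that cells switch on in answer to interferon, together with the cytosolic RNA sensors that start the response. The members were chosen by name, as the rows of the deposited expression table whose Ensembl identifier maps to a fixed list of 43 symbols. DDX58 is the older symbol of RIGI, so the list holds 42 genes, all of which were found among the 50653 genes of the table. The table holds 4 RNA-seq libraries, 1 for each combination of cell line and short hairpin RNA (shRNA): BT-20 with control shRNA, BT-20 with QPRT shRNA, MDA-MB-468 with control shRNA and MDA-MB-468 with QPRT shRNA. Both are long-established cell lines from triple-negative breast cancers, which lack the hormone receptors and HER2 amplification. QPRT encodes quinolinate phosphoribosyltransferase, an enzyme of NAD synthesis from tryptophan, and the experiment asked what changes in breast cancer cells when it is depleted. All 4 cultures carried a lentiviral shRNA vector and had been selected with puromycin, so no culture without a vector was sequenced. The lines were grown in different media, Eagle's minimum essential medium for BT-20 and Leibovitz L-15 medium for MDA-MB-468, so that line and medium cannot be told apart. No interferon treatment is named in the labels or in the study's methods. Each group is 1 library, so a difference within a line has no replicate check.

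Interferons are secreted proteins that bind receptors at the cell surface and act through the kinases JAK1 and TYK2 on transcription factors, among them STAT2. With IRF9, STAT2 is part of a complex that binds the interferon-stimulated response element (ISRE) in the promoters of its target genes. The products of these genes recognise foreign RNA, block translation, trap budding particles, hinder entry at membranes or feed back on the signal itself. Many tumour cells keep some of these genes on without added interferon.

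The ISRE is the sequence that ties these genes together, and it is shown here for members whose values the results turn on. The core searched was GAAANNGAAA, where N is any base, on either strand, in the 250 bases before the RefSeq start site (GRCh38.p14). Sequences are given 5′ to 3′ on the strand of the gene, in lower case, with every match to the core in capitals, and a match on the other strand reads TTTC, any 2 bases, TTTC. Matches may overlap, as in BST2, ISG15 and IFIH1. The windows were shortened where GENCODE annotates an exon. The region before IFI6 lies at chr1:27672219-27672442 on the minus strand, and it is shown because it holds 3 cores. The region before IFIT1 lies at chr10:89392373-89392545 on the plus strand and holds 2. The neighbouring genes SAMD9 (chr7:93118024-93118229, minus strand) and SAMD9L (chr7:93148386-93148635, minus strand) are shown for their differences between the shRNAs in BT-20. These were the largest of the members on the log2(FPKM + 1) scale. A core stands before SAMD9 and none before SAMD9L. The region before IFI44 (chr1:78649539-78649788, plus strand) is shown for a gene that was higher in MDA-MB-468, with its core close to the start site.
IFI6: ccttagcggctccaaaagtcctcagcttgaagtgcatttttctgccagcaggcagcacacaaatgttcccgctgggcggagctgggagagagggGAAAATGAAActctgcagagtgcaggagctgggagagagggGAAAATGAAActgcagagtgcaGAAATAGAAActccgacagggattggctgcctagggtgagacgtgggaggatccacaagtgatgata
IFIT1: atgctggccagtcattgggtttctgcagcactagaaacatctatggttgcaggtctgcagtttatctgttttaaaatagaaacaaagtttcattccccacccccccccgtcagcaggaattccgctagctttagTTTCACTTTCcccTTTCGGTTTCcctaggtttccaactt
SAMD9: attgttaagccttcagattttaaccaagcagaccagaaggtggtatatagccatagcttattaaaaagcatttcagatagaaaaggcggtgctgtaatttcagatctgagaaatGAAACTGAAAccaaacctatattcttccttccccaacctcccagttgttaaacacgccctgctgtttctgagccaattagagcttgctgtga
SAMD9L: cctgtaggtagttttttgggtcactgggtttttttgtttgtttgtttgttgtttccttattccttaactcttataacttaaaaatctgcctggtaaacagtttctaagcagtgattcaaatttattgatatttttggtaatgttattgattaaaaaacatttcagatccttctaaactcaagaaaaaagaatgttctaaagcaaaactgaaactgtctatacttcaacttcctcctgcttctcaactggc
IFI44: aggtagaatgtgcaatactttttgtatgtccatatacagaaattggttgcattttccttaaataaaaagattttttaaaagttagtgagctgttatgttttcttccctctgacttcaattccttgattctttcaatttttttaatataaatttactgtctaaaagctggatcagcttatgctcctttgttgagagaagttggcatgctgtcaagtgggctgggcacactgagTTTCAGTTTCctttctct

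For the next 4 members only the 30 bases around the core are shown, to set the element of genes that were higher in BT-20 beside that of genes that were higher in MDA-MB-468. They lie at chr19:17405738-17405767 (minus strand) for BST2, chr11:313990-314019 (plus) for IFITM1, chr1:1013377-1013406 (plus) for ISG15 and chr2:162318821-162318850 (minus) for IFIH1. The first 2 of these genes had the higher FPKM in BT-20 and the last 2 in MDA-MB-468.
BST2: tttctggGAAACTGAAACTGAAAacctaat
IFITM1: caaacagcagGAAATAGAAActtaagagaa
ISG15: gcctcggGAAAGGGAAACCGAAActgaagc
IFIH1: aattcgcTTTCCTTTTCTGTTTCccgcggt

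Of the 42 members, 34 had an entry in the RefSeq promoter table, and IFIT2, IFITM2, MX2, OAS2, OASL, IRF7, USP18 and TRIM22 had none. The ISRE core stood in the window of 19 of the 34, or 55.9%, and in 839 of all 27305 promoters of the table, or 3.07%. The gamma activated site, TTCNNNGAA, which is its own reverse complement, stood in 9 of the 34, or 26.5%, and in 1850 of all promoters, or 6.78%. The cores were at many distances, from positions -12 to -3, counted back from the start site, in OAS3 to positions -164 to -155 in IFI44L. Cores were found before genes that were higher in either line: before 3 of the 6 matched members at least 2-fold higher in MDA-MB-468 (ISG20, IFI44 and IFIH1, and not MX1, RSAD2 or CMPK2) and before 3 of the 4 matched members at least 2-fold higher in BT-20 (IFI6, IFITM1 and BST2, and not IFI35). Among the other 24 matched members the core stood before 13. The search counted only GAAA repeats with 2 bases between them. The windows of RSAD2, RIGI and OAS1 hold GAAACGAAA, where the repeats stand closer, and these were not counted. A match is a stretch of letters, not a measured binding site, and no binding was measured in these libraries.

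**Figure D1:**
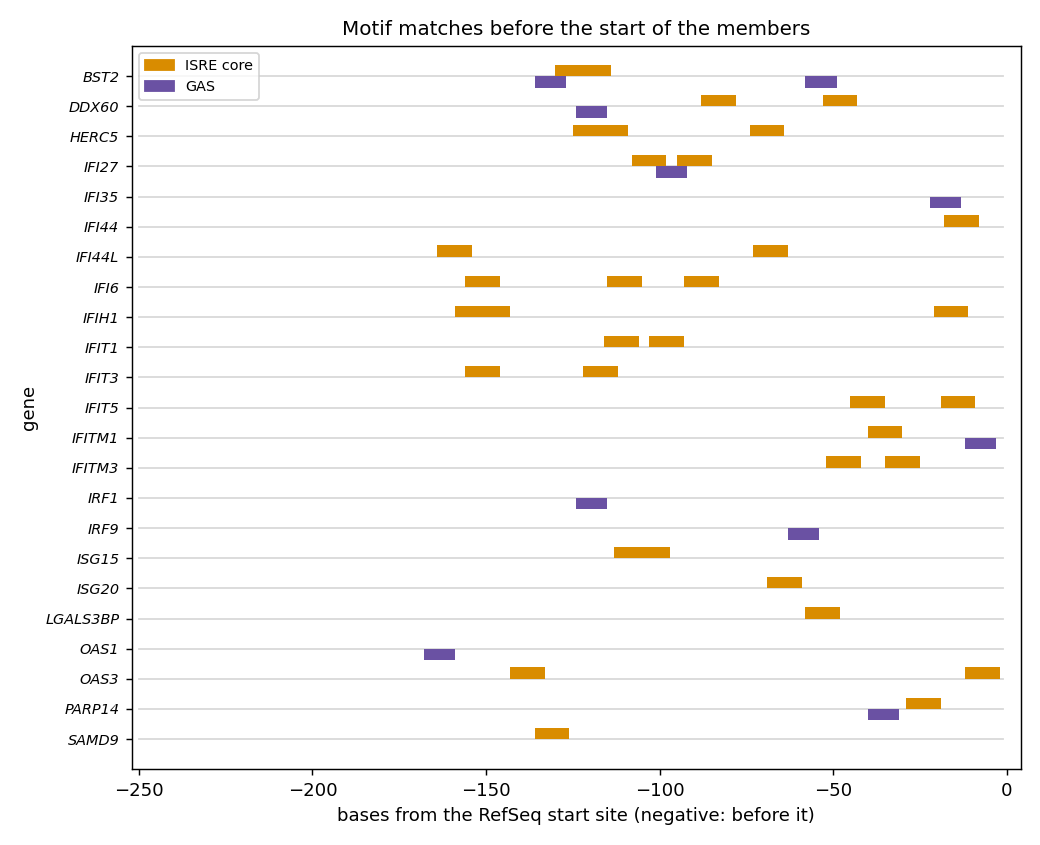
Matches to the ISRE core (orange) and the gamma activated site (purple) in the window before the start site of the 23 members that hold at least 1 of them. The x axis gives the distance in bases from the RefSeq start site, each grey line is the window of 1 gene on its own strand, and bars that touch are overlapping matches. IFI6, HERC5 and IFIH1 hold 3 cores each, while IFI35, OAS1, IRF1 and IRF9 hold a gamma activated site and no core.

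The libraries held between 10321996 and 10945948 fragments, as recovered from the deposited values. QPRT itself was at 249 FPKM (fragments scaled to the length of the transcript and the depth of the library) in the BT-20 control and at 40.5 in its knockdown, and at 117 and 18.3 in the MDA-MB-468 pair, so each knockdown library lay below its control. Epithelial markers were detected in every library, with KRT8 from 1548 to 4214 FPKM and EPCAM from 148 to 359. With control and QPRT shRNA, the basal keratin KRT14 was at 0.33 and 0.16 FPKM in BT-20, from 4 and 2 fragments, and at 5.76 and 40.6 in MDA-MB-468. Limma for the shRNA, fitted over both lines, put KRT14 at 1.21 ± 0.28 (adjusted p = 0.00598). The lines disagreed, with log2 differences of 2.62 for MDA-MB-468 and -0.20 for BT-20. That p rests on a variance pooled over genes and is no test within MDA-MB-468. KRT5 and KRT17 went from 642 to 983 and from 237 to 373 in MDA-MB-468. PGR was listed at 0 in all 4, ESR1 ran from 1.05 to 5.76 and ERBB2 from 50.7 to 129. Among 12 leukocyte markers, MS4A1 was at 0 throughout and PTPRC reached at most 0.34 FPKM, and the summed level of the list was 8.19, 7.89, 24.5 and 33.8 FPKM in the order named above, most of it CD14 and CSF1R. The 9 markers of intestinal and gastric epithelium summed to 56.4 FPKM in BT-20 with control shRNA against 18.6 with QPRT shRNA, and to 121 against 19.6 in MDA-MB-468, and 5 plasma cell markers to 32.5 against 15.2 and 76.3 against 15.1. The intestinal, gastric and plasma cell markers moved with the shRNA in both lines and the keratins in MDA-MB-468, and their part in the shRNA differences described below was not tested. In bulk RNA, fewer cells of a type and less RNA per cell cannot be told apart. Whether intestinal, gastric or plasma cells were in the cultures at all was not tested, and neither was the source of these transcripts.

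The members spanned a wide range of levels in these untreated cultures. A mean of at least 1 FPKM over the 4 libraries was reached by 38 of the 42, a mean of at least 10 by 19 and a mean of at least 100 by 4. IFI44L, MX2, OASL and HERC5 stayed below 1 and entered no test. The highest mean was that of IFITM3, a membrane protein that restricts viral entry, at 571 FPKM. LGALS3BP, a secreted glycoprotein that binds galectin, followed with a mean of 387, BST2 (tetherin, which holds budding virus at the cell surface) with 291 and IFITM2 with 123. With control and QPRT shRNA, LGALS3BP was at 396 and 453 FPKM in BT-20 and at 370 and 329 in MDA-MB-468. FPKM is scaled to transcript length. For most genes the deposited values fit the mean length of the annotated transcripts, whichever of them were expressed, so levels of different genes compare only roughly. STAT2 followed among the transcription factors and sensors with a mean of 43.6 FPKM, IRF1 with 36.5 and IRF7 with 28.8, whereas IRF9, the partner of STAT2, had a mean of 1.65. Exons of IRF9 overlap those of the protein-coding AL136295.5 on the same strand, so how shared fragments were assigned bears on its level. The summed FPKM of all members was 2346 and 2283 in the BT-20 libraries and 1176 and 1370 in the MDA-MB-468 libraries, the sum being set mostly by IFITM3, LGALS3BP, BST2 and IFITM2.

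**Figure D2:**
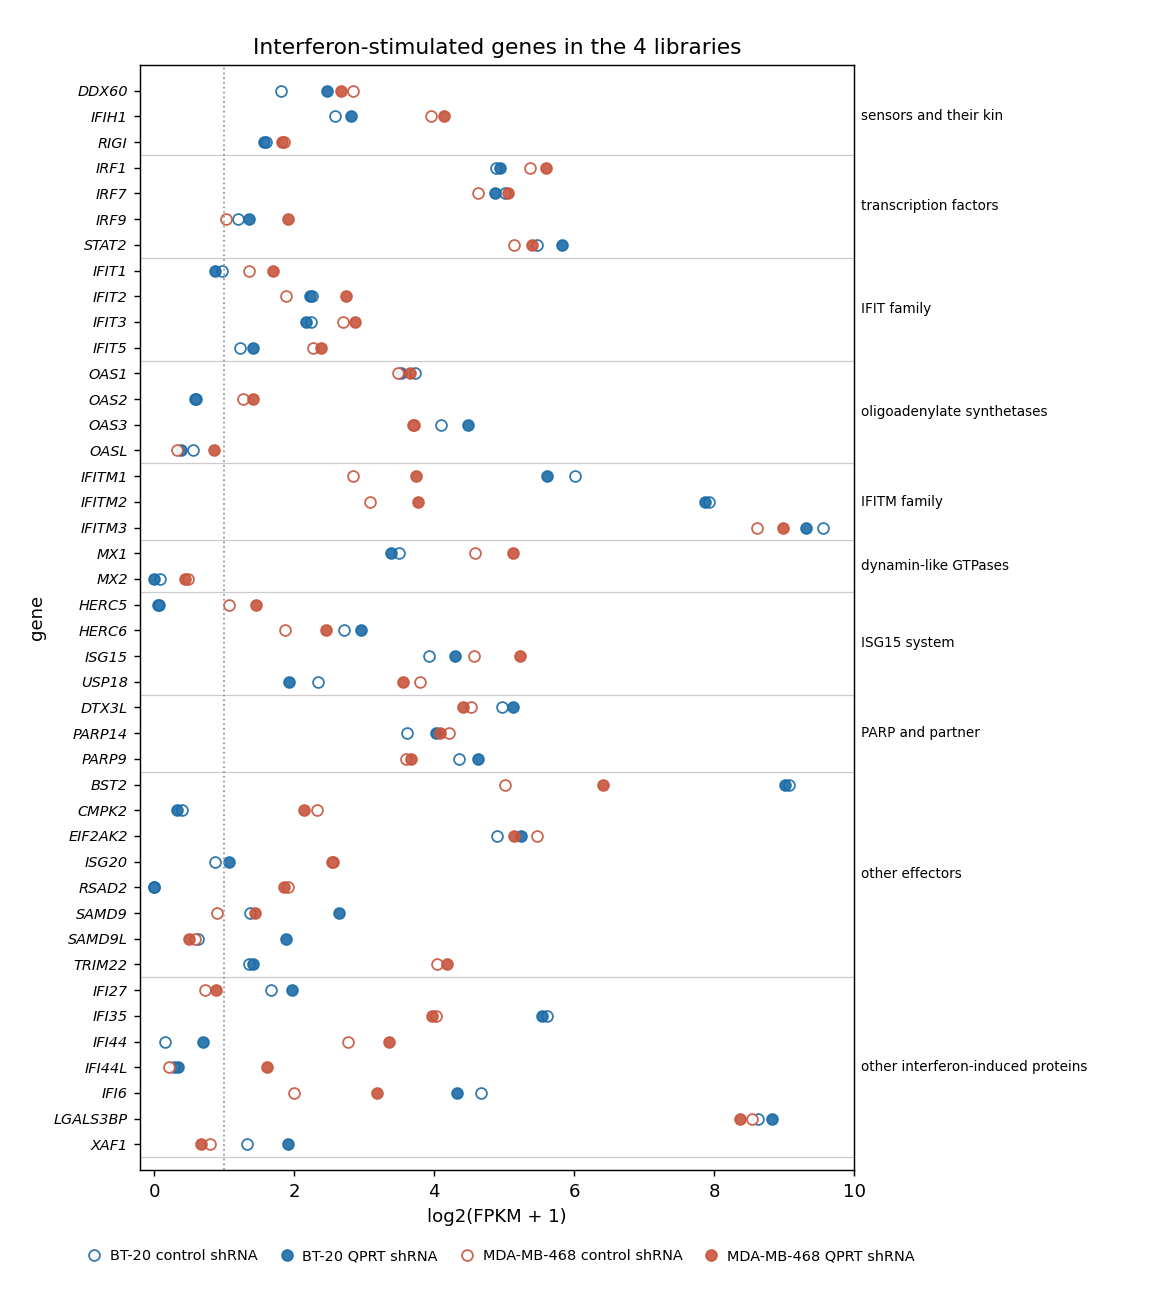
Level of each of the 42 members in the 4 libraries as log2(FPKM + 1), grouped by role, with open circles for control shRNA, filled circles for QPRT shRNA, blue for BT-20 and red for MDA-MB-468. The dotted line marks an FPKM of 1. The blue and red pairs lie apart for BST2, IFITM1, IFITM2, TRIM22 and IFI44, while the 4 circles of OAS1 and RIGI lie close together.

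The interferon-stimulated genes differed between the lines in both directions. Among the 38 members tested, 8 (21.1%) were at least 2-fold higher in MDA-MB-468 in both shRNA pairs on the log2(FPKM + 1) scale, where 13.3% of all 14321 genes tested were. Another 5 (13.2%) were at least 2-fold higher in BT-20 in both pairs, against 9.99% of all genes. Over the 4 libraries, a limma fit with line and shRNA as terms put 13 members higher in MDA-MB-468 at an adjusted p under 0.05 (34.2%, against 30.7% of all genes) and 14 higher in BT-20 (36.8%, against 24.4%). The FPKM values of the lines did not overlap for 32 members: both MDA-MB-468 libraries lay above both BT-20 libraries for 17 (44.7%, against 42.8% of all genes) and below them for 15 (39.5%, against 34.7%). The median log2 difference, MDA-MB-468 minus BT-20, was -0.07 over the members and 0.12 over all genes in the control shRNA pair, and 0.16 and 0.07 in the QPRT shRNA pair, where the members' median changed sign, to -0.33, among those with a mean of at least 5 FPKM. So the members did not move one way between the lines, and the shares called were above the background by a margin that was not tested. The fit leaves 1 residual degree of freedom, and its replicates are libraries of a line with different shRNAs. Its standard errors and p-values rest on a variance pooled over genes of like mean expression, and hardly on the spread of the gene itself. They can therefore be small where the pairs disagree. For BST2 the log2 differences were -4.05 in the control pair and -2.61 in the QPRT pair, with a standard error of 0.19. Leaving out any single library lowered the calls in both directions, among the members and also among all genes. Of the 27 calls, 11 passed under every alternative (BST2, IFITM1, IFITM2 and IFI35 toward BT-20, and TRIM22, IFI44, RSAD2, CMPK2, USP18, ISG20 and IFIH1 toward MDA-MB-468), and the other 16 were lost in at least 1 fit that left out a library.

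The largest differences in favour of BT-20 were at membrane proteins. IFITM2, a restriction factor of the IFITM family, was at 241 and 232 FPKM in the BT-20 libraries with control and QPRT shRNA and at 7.43 and 12.7 in the corresponding MDA-MB-468 libraries. BST2 was at 534 and 516 FPKM in BT-20 and at 31.3 and 83.9 in MDA-MB-468. IFITM1, which sits at the plasma membrane, was at 63.5 and 47.7 in BT-20 and at 6.12 and 12.4 in MDA-MB-468. For these 3 genes every BT-20 library stood above every MDA-MB-468 library, by a ratio of 32.5 for IFITM2, 17.1 for BST2 and 10.4 for IFITM1 in the control pair, and of 18.3, 6.15 and 3.86 in the QPRT pair. The limma log2 difference was -4.47 ± 0.21 (SE, adjusted p = 5.24e-96) for IFITM2, -3.33 ± 0.19 (adjusted p = 3.12e-63) for BST2 and -2.52 ± 0.23 (adjusted p = 1.04e-26) for IFITM1. IFITM3, the most abundant member, was closer between the lines, at 753 and 635 FPKM in BT-20 against 391 and 505 in MDA-MB-468 (-0.64 ± 0.19, adjusted p = 0.00175). The IFITM genes lie side by side on chromosome 11 and are close paralogs, and in GENCODE exons of IFITM2 and IFITM1 overlap on the same strand, so how their shared fragments were assigned bears on the single values. BST2 lies alone on chromosome 19 (17402939 to 17405648, minus strand of GRCh38).

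IFI6, a mitochondrial protein that opposes cell death, and IFI35, a partner of NMI, were the other members at least 2-fold higher in BT-20 in both pairs. IFI6 was at 24.5 and 18.99 FPKM in BT-20 and at 2.97 and 8.05 in MDA-MB-468, and IFI35 at 48.1 and 45.5 against 15.2 and 14.6. Neither gene overlapped between the lines. The ratio for IFI6 was 8.24 in the control pair and 2.36 in the QPRT pair, whereas that of IFI35 was alike in the pairs, 3.16 and 3.12.

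The 8 members at least 2-fold higher in MDA-MB-468 in both pairs were TRIM22, IFI44, RSAD2, CMPK2, MX1, USP18, ISG20 and IFIH1. TRIM22, a ubiquitin ligase of the tripartite motif family, was at 1.54 and 1.66 FPKM in BT-20 and at 15.4 and 17.1 in MDA-MB-468 (limma 2.72 ± 0.27, adjusted p = 1.32e-22). IFI44, a cytoplasmic protein of unsettled function, was at 0.11 and 0.62 FPKM in BT-20, from 1 and 6 fragments, and at 5.77 and 9.19 in MDA-MB-468 (2.63 ± 0.29, adjusted p = 4.21e-18). For both genes the MDA-MB-468 libraries stood far above the BT-20 libraries, by a ratio of 9.96 and 10.3 for TRIM22 and of 54.3 for IFI44 in the control pair, where counting error alone gives a 95% interval of 9.36 to 2184. In the QPRT pair the ratio for IFI44 was 14.8 (6.52 to 41.5).

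RSAD2 (viperin, which makes a chain-ending nucleotide) and CMPK2, a nucleotide kinase, are head to head on chromosome 2 and share a stretch of opposite exons. RSAD2 had no fragment in either BT-20 library and 36 and 32 fragments, or 2.77 and 2.61 FPKM, in MDA-MB-468. CMPK2 was at 0.32 and 0.25 FPKM in BT-20 and at 3.99 and 3.38 in MDA-MB-468. Set against a floor of 3 fragments per library in BT-20, the ratio for RSAD2 was 11.6 in the control pair and 11.3 in the QPRT pair. The ratios for CMPK2 were 12.6 and 13.7. The exact counting intervals for RSAD2 started lower, at 8.99 and 8.65. Limma put both higher in MDA-MB-468, by 1.88 ± 0.31 (adjusted p = 9.14e-09) and 1.87 ± 0.30 (adjusted p = 4.71e-09).

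MX1, a dynamin-like GTPase that traps viral particles, was at 10.3 and 9.37 FPKM in BT-20 and at 23.0 and 34.0 in MDA-MB-468. USP18, the protease that takes ISG15 off proteins and damps signalling at the receptor, was at 4.07 and 2.80 in BT-20 and at 12.9 and 10.7 in MDA-MB-468. ISG20, an exonuclease, was at 0.82 and 1.10 against 4.83 and 4.86. None of these overlapped between the lines, and their limma differences were 1.42 ± 0.24, 1.54 ± 0.27 and 1.58 ± 0.29 with adjusted p of 1.35e-08, 3.87e-08 and 3.43e-07. ISG15 itself, the ubiquitin-like modifier, was at 14.1 and 18.6 FPKM in BT-20 and at 22.7 and 36.2 in MDA-MB-468 (0.79 ± 0.23, adjusted p = 0.00164).

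The RNA sensors were not alike. IFIH1 (MDA5), the sensor of long RNA duplexes, was at 4.99 and 5.996 FPKM in BT-20 and at 14.5 and 16.5 in MDA-MB-468 (1.35 ± 0.25, adjusted p = 6.08e-07). RIGI, the sensor of RNA ends with a triphosphate, was at 2.03 and 1.98 against 2.62 and 2.55 (0.26 ± 0.29, adjusted p = 0.475, interval of the difference -0.32 to 0.83). DDX60, a helicase described as their cofactor, was at 2.49 and 4.55 FPKM in BT-20 and at 6.17 and 5.33 in MDA-MB-468 (0.61 ± 0.28, adjusted p = 0.0487). The ratios were 2.90 and 2.76 in the control and QPRT pairs for IFIH1, 2.47 and 1.17 (0.85 to 1.62) for DDX60 and 1.29 in each pair for RIGI. The call for DDX60 was lost in 10 of 12 alternatives, among them each fit without 1 library, limma-voom and the fit with the GC and length trend removed. In the latter the control pair of RIGI turned to a log2 difference of -0.27.

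Among the transcription factors, IRF1, which is induced mainly by interferon gamma, was higher in MDA-MB-468, with 40.4 and 47.4 FPKM against 28.4 and 29.7 (0.57 ± 0.22, adjusted p = 0.0176). STAT2, IRF7 and IRF9 did not pass the test, with limma differences of -0.38 ± 0.21, -0.09 ± 0.22 and 0.19 ± 0.30. The FPKM of IRF7, the factor that amplifies interferon production, overlapped between the lines at 31.1 and 28.2 against 23.7 and 32.3.

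The IFIT proteins, which bind foreign RNA and stop its translation, had 1 member past the threshold. IFIT5 was at 1.34 and 1.67 FPKM in BT-20 and at 3.80 and 4.22 in MDA-MB-468 (1.00 ± 0.29, adjusted p = 0.00149). IFIT1 and IFIT3 lay above BT-20 in both MDA-MB-468 libraries without passing (adjusted p = 0.0787 and 0.0651), the control pair of IFIT1 turning to a log2 difference of -0.05 with the GC and length trend removed, and IFIT2 overlapped, at 3.75 and 3.65 against 2.69 and 5.70. The oligoadenylate synthetases, which make the activator of RNase L, lie together on chromosome 12 and went different ways: OAS2 was higher in MDA-MB-468 (0.51 and 0.50 against 1.41 and 1.67 FPKM, adjusted p = 0.0302), OAS3 higher in BT-20 (16.1 and 21.4 against 11.98 and 12.1, adjusted p = 0.0287), and OAS1 overlapped, at 12.3 and 10.5 against 10.2 and 11.5 (adjusted p = 0.846).

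The remaining members higher in BT-20 by limma had smaller differences. PARP9 and DTX3L, an ADP-ribosyltransferase and the ubiquitin ligase bound to it, share a divergent start on chromosome 3 with overlapping exons on opposite strands, and were at 19.5 and 23.6 against 11.1 and 11.7 FPKM (-0.86 ± 0.24, adjusted p = 0.00093) and at 30.4 and 34.0 against 22.1 and 20.4 (-0.58 ± 0.23, adjusted p = 0.0207). PARP14, next to them, did not pass (0.34 ± 0.24, adjusted p = 0.233). HERC6, a HERC family ligase, was at 5.55 and 6.75 against 2.65 and 4.48 FPKM, IFI27 at 2.17 and 2.90 against 0.66 and 0.84, and XAF1, an antagonist of the apoptosis inhibitor XIAP, at 1.51 and 2.76 against 0.73 and 0.58. Their adjusted p were 0.0285, 0.00217 and 0.00806, and for none of the 5 genes that passed did the lines overlap. The neighbour of HERC6, HERC5, the main ligase for ISG15 in human cells, was below the filter and went the other way, with 1 fragment in each BT-20 library and 27 and 40 in MDA-MB-468 (ratios of 26.2, counting interval 4.32 to 1073, and 42.3, interval 7.16 to 1711). SAMD9 and SAMD9L also passed toward BT-20 (adjusted p = 0.0102 and 0.039), with log2 differences of -1.21 and -1.39 in the QPRT shRNA pair and of -0.47 and -0.05 in the control pair.

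**Figure D3:**
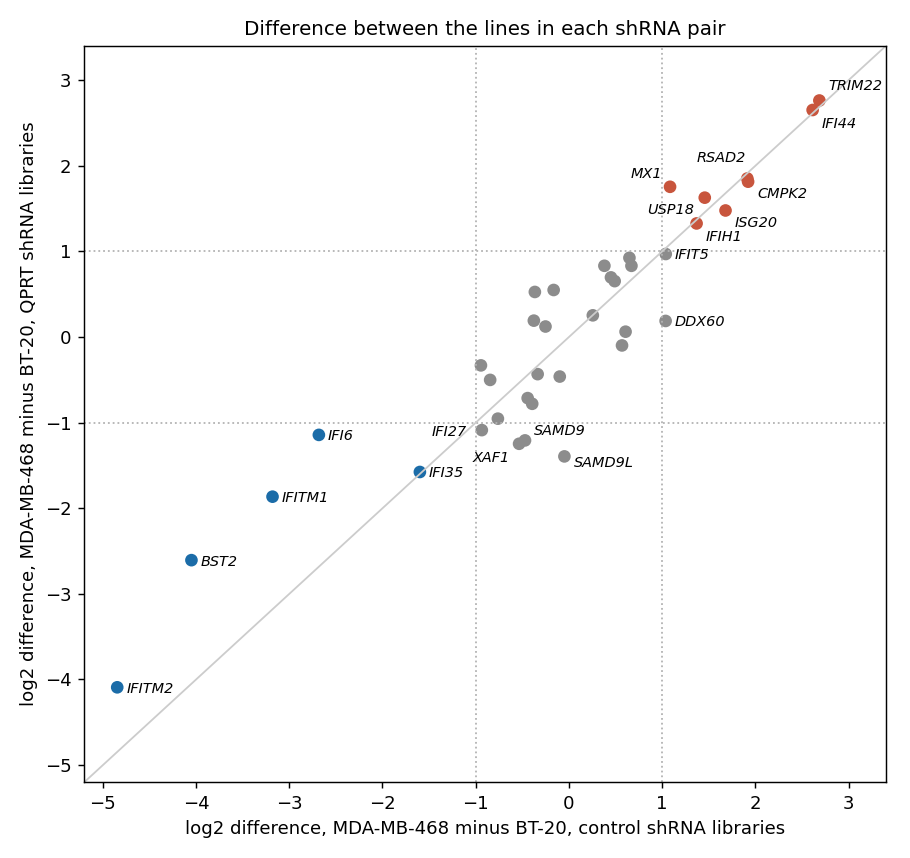
Log2 difference of the FPKM + 1 values between the lines, MDA-MB-468 minus BT-20, for the 38 members tested, with the control shRNA pair on the x axis and the QPRT shRNA pair on the y axis. Dotted lines mark 2-fold, and red and blue points are the 8 and 5 members past it toward MDA-MB-468 and BT-20 in both pairs. TRIM22 and IFI44 lie near the grey line of equal differences, while BST2, IFI6, IFITM1 and IFITM2 lie above it, where the gap between the lines was smaller with QPRT shRNA.

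With QPRT shRNA, few members differed 2-fold from control shRNA, and those that did were different genes in the lines. In BT-20, SAMD9 and SAMD9L were at least 2-fold higher on the log2(FPKM + 1) scale, 2 of 38 members (5.26%) against 1.05% of all genes, and no member was 2-fold lower, against 0.649% of all genes. In MDA-MB-468, BST2 and IFI6 were at least 2-fold higher, again 2 of 38, against 1.03% of all genes, and no member was 2-fold lower, against 0.866%. In the limma fit over both lines no member passed an adjusted p under 0.05 in either direction, where QPRT shRNA put 0.265% of all genes higher and 0.363% lower. Before adjustment, 3 of 38 members and 687 of 14321 genes were under 0.05. In that fit the lines stand in for replicates of the knockdown.

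The share of members that were higher with QPRT shRNA was near that of all genes in BT-20 and above it in MDA-MB-468. The median log2 difference, QPRT minus control shRNA, was 0.11 over the members and 0.05 over all genes in BT-20. In MDA-MB-468 it was 0.16 and 0.01. In BT-20, 21 members were higher (55.3%, against 56.4% of all genes), 16 lower and RSAD2 at 0 in both libraries. In MDA-MB-468, 26 were higher (68.4%, against 51.5%) and 12 lower. The 95% counting interval of the fragment ratio lay above equality for 11 members in BT-20 (28.9%, against 26.8% of all genes) and below it for 4 (10.5%, against 16.7%). In MDA-MB-468 it lay above equality for 16 (42.1%, against 22.9%) and below it for 3 (7.89%, against 21.1%). These intervals cover counting error only, so that such a member differed between 2 libraries and not necessarily between 2 conditions. For 14 members the QPRT shRNA value was higher in both lines (36.8%, against 26.2% of all genes), and for 4 it was lower in both (10.5%, against 17.7%). The margins over all genes were not tested.

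SAMD9 and SAMD9L encode related cytoplasmic proteins that restrict poxviruses and hold back cell growth, and they lie in tandem on chromosome 7, 12032 bases apart. In BT-20, SAMD9 was at 1.58 FPKM (98 fragments) in the control library and at 5.25 (335 fragments) after knockdown, and in MDA-MB-468 at 0.86 (55) and 1.70 (103). SAMD9L was at 0.54 FPKM (15 fragments) and 2.70 (77) in BT-20 and at 0.49 (14) and 0.41 (11) in MDA-MB-468. The BT-20 library with QPRT shRNA was thus the highest of the 4 for both genes, while in MDA-MB-468 the knockdown library was the higher for SAMD9 and had 3 fragments fewer for SAMD9L. The FPKM ratio in BT-20 was 3.33 (counting interval 2.65 to 4.21) for SAMD9 and 4.998 (2.85 to 9.36) for SAMD9L, and in MDA-MB-468 1.99 (1.42 to 2.81) and 0.83 (0.34 to 1.98). The limma difference of SAMD9 over both lines was 0.91 ± 0.30 (adjusted p = 0.205). It passed in limma without the trend on mean expression (adjusted p = 0.0422) and in limma-voom on the fragments (adjusted p = 0.00283), within a range up to 1.00 over the alternatives. The log2 differences in BT-20, 1.28 and 1.26, became 0.96 and 0.99 when the trend of all genes on GC content and transcript length was removed, which takes both just below 2-fold.

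In MDA-MB-468, genes that are abundant in BT-20 were among those that were higher with QPRT shRNA. BST2 was at 31.3 FPKM in the control library and 83.9 in the knockdown library, a ratio of 2.68 (counting interval 2.28 to 3.16), and at 534 and 516 in BT-20, a ratio of 0.97 (0.92 to 1.01). IFI6 was at 2.97 and 8.05 FPKM in MDA-MB-468, a ratio of 2.71 (1.71 to 4.40), and at 24.5 and 18.99 in BT-20 (0.78, 0.63 to 0.95). Both MDA-MB-468 libraries stayed below both BT-20 libraries for each gene. BST2 had the lowest adjusted p of the members for the shRNA in limma, 0.0766 (0.67 ± 0.19). That standard error is pooled over genes. It does not reflect that the log2 difference was 1.39 in MDA-MB-468 and -0.05 in BT-20. IFITM1 was at 6.12 and 12.4 FPKM in MDA-MB-468, a ratio of 2.02, and IFITM2 at 7.43 and 12.7, a ratio of 1.71, beside 0.75 and 0.96 in BT-20, where the counting interval of IFITM2 held equality.

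IFIT2 and IRF9 were over 2-fold higher in MDA-MB-468 by FPKM ratio and under 2-fold on the scale with the added constant. IFIT2 was at 2.69 and 5.70 FPKM, a ratio of 2.12 (1.67 to 2.74), with 3.75 and 3.65 in BT-20. Its exons overlap those of LIPA on the opposite strand, and LIPA was at 55.8 to 75.7 FPKM, so reads of the 2 genes cannot be told apart without strand. IRF9 was at 1.03 and 2.74 FPKM from 10 and 25 fragments, a ratio of 2.65 (1.23 to 6.19), with 1.28 and 1.56 in BT-20. The overlap of its exons with AL136295.5 on the same strand bears on these values too. IFI44L, below the filter of 1 FPKM and so in no count, had 3 fragments in the MDA-MB-468 control and 37 in its knockdown, a ratio of 13.1 (4.14 to 66.3), and 4 and 5 fragments in BT-20. Its neighbour IFI44 was at 5.77 and 9.19 FPKM in MDA-MB-468, a ratio of 1.59 (1.12 to 2.27). In BT-20 the ratio for IFI44 was 5.84, from 1 and 6 fragments, with a counting interval that held equality (0.71 to 269).

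Besides SAMD9, ISG15 and STAT2 were higher with QPRT shRNA in both lines with counting intervals that lay above equality in each. ISG15 was 1.32 times higher in BT-20 (1.02 to 1.71) and 1.59 times in MDA-MB-468 (1.31 to 1.94), with a limma difference of 0.51 ± 0.23 (adjusted p = 0.828). STAT2 was at 43.3 and 55.8 FPKM in BT-20 and at 34.1 and 41.1 in MDA-MB-468, ratios of 1.29 and 1.20. In BT-20 the interval also lay above equality for DDX60, at a ratio of 1.83 (1.23 to 2.75), and, at smaller ratios, for PARP14 (1.36), OAS3 (1.34) and PARP9 (1.21). USP18 was the member that was lower in both with intervals below equality, at ratios of 0.69 (0.49 to 0.96) and 0.83 (0.70 to 0.99).

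**Figure D4:**
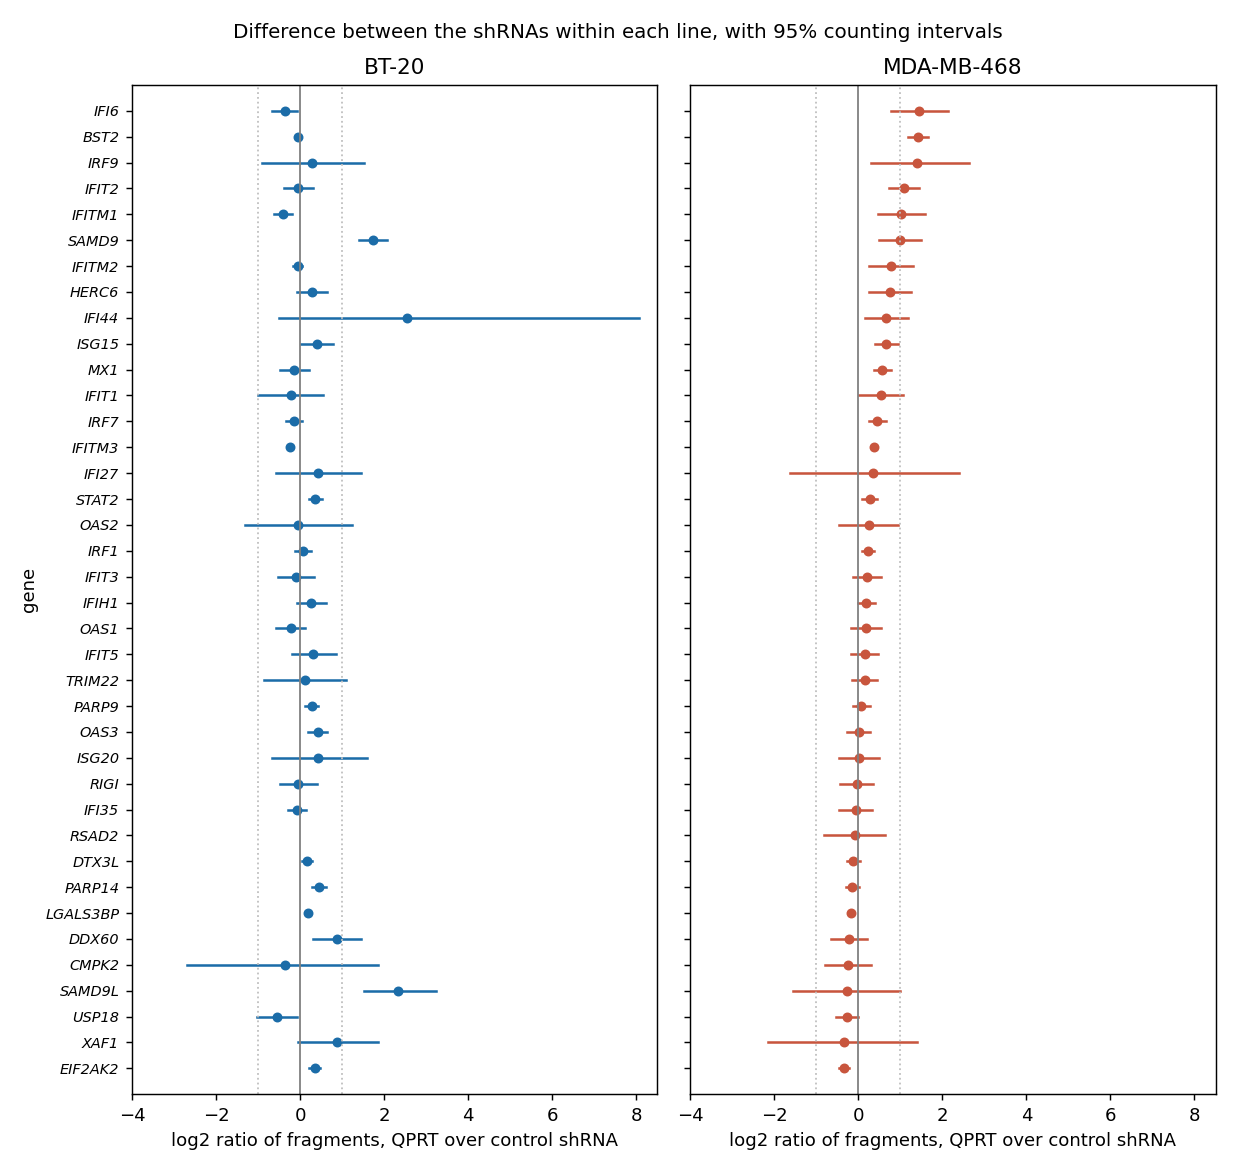
Log2 ratio of fragments, QPRT shRNA over control shRNA, in BT-20 (left, blue) and MDA-MB-468 (right, red) for the 38 members tested, ordered by the ratio in MDA-MB-468. Bars are exact 95% counting intervals, which leave out biological variation, the solid line marks equality, dotted lines mark 2-fold, and RSAD2 has no point in BT-20 because it had no fragments there. SAMD9 and SAMD9L stand out on the left with intervals above equality. The highest point there is IFI44, at 2.55 from 1 and 6 fragments, with an interval that holds equality (-0.50 to 8.07). IFI6, BST2, IRF9, IFIT2 and IFITM1 lead on the right.

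By family, the log2 differences of the 3 IFITM genes, QPRT minus control shRNA, ran from -0.41 to -0.06 in BT-20, where the value nearest 0 was that of IFITM2, which turned to 0.04 with the GC and length trend removed. In MDA-MB-468 they ran from 0.37 to 0.91, and the counting intervals of all 3 lay above equality. Over 14232 genes the shRNA difference also followed GC content in opposite directions, with rho of -0.27 for BT-20 against 0.28 for MDA-MB-468. Its part in the IFITM contrast was not tested beyond removing the trend. The 4 IFIT genes ran from 0.12 to 0.86 in MDA-MB-468, with intervals above equality for IFIT1 and IFIT2 and not for IFIT3 or IFIT5, and from -0.11 to 0.19 in BT-20, where every interval held equality. PARP9, PARP14 and DTX3L ran from 0.16 to 0.41 in BT-20 with intervals above equality, but DTX3L, the lowest, turned to -0.04 with the same trend removed. In MDA-MB-468 they ran from -0.13 to 0.07, and each interval held equality. The transcription factors STAT2, IRF1, IRF7 and IRF9 ran from 0.22 to 0.88 in MDA-MB-468, with all 4 intervals above equality. Genes of a family share position as well as function: 23 of the 42 members fall into 14 pairs of members whose annotated ends lie within 200 kb of each other, so they are not independent of one another. EIF2AK2 (PKR), the kinase that stops translation on sensing RNA, went the other way, at 28.9 and 36.8 FPKM in BT-20 against 43.4 and 34.3 in MDA-MB-468.

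Beyond the members, the genes of the pathway were read from lists. Of 22 interferon genes, 17 were at 0 in all 4 libraries and none reached a mean of 1 FPKM, and their summed level ran from 0.06 to 0.62 FPKM, IFNB1 among those at 0. The receptors and the kinases behind them were expressed, all 16 genes of that list being tested. IFNGR1, IFNGR2, IFNLR1, IL10RB, PTPN2 and TYK2 were at least 2-fold higher in MDA-MB-468 in both pairs, and PTPN6 and SOCS3 in BT-20. TYK2, the kinase bound to the IFNAR1 chain, was at 55.6 and 59.2 FPKM in BT-20 and at 353 and 382 in MDA-MB-468 (limma 2.66 ± 0.20, adjusted p = 3.11e-40), whereas IFNAR1 was at 32.0 and 41.3 against 42.3 and 40.9 and did not pass (adjusted p = 0.475). On the log2(FPKM + 1) scale no gene of the list was 2-fold apart between the shRNAs in either line. SOCS1 came nearest, at 0.84 in MDA-MB-468. Its FPKM there, 2.91 and 6.01, was over 2-fold apart without the added constant.

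Of 18 genes of nucleic acid sensing, 15 were tested, none was 2-fold higher in MDA-MB-468 in both pairs, and IRF5 and TBK1 were 2-fold higher in BT-20. CGAS, the cytosolic DNA sensor, was at 0.14 and 0.05 FPKM in BT-20 and at 0.87 and 4.78 in MDA-MB-468, the only gene of this list 2-fold apart between the shRNAs (limma for the shRNA, adjusted p = 0.701). Of 45 further interferon-induced genes, some of which also stand in the pathway lists, 32 were tested. GBP2, PLSCR1 and TNFSF10 were at least 2-fold higher in MDA-MB-468 in both pairs, and IFI16, LY6E, SHISA5 and UBA7 in BT-20, or 9.38% and 12.5% of those tested, against 13.3% and 9.99% of all genes. TNFSF10, the death ligand TRAIL, was at 0.17 FPKM in each BT-20 library and at 81.2 and 77.0 in MDA-MB-468, and LY6E, a membrane-anchored restriction factor, at 1595 and 1341 against 341 and 382. None of the 32 was 2-fold apart between the shRNAs in either line on the log2(FPKM + 1) scale, and none passed limma for the shRNA at an adjusted p under 0.05.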

How the data were processed

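Total RNA of the 4 cultures was made into libraries with the TruSeq RNA kit and sequenced on an Illumina NovaSeq. The authors trimmed the reads and deposited FPKM values per Ensembl gene. The submitters' processing notes name TopHat2 2.0.12, HTSeq 0.6.1, FastQC, MultiQC and CASAVA without their roles or order, and the genome build, annotation and use of strand are not given in the sources used here. The study's own differential test was not repeated here.

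Symbols were found for 49414 of the 50653 identifiers. Coordinates and transcript lengths are from GENCODE 29 (GRCh38), promoter sequences from RefSeq (GRCh38.p14). Fragments were recovered as FPKM times mean transcript length, scaled by the library total, and were whole within 0.02 for 85.3% to 85.6% of values, and for 97.6% to 97.8% in genes with a single transcript. For 8 members (ISG15, IFI35, IFIT1, IFIT2, IFIH1, IRF7, PARP14 and EIF2AK2) they are approximate. Ratios of fragments have exact Clopper-Pearson 95% intervals. No molecular identifiers are named in the sources, so fragments are not taken as independent molecules, and intervals and the floor of 3 fragments cover counting error only.

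Differences are of log2(FPKM + 1), which understates low genes, over the 14321 genes with a mean of at least 1. The printed ratios are of FPKM without the constant. With 1 library per group there is no test within a line. Limma 3.58.1 (R 4.3.3) was fitted with line and shRNA as terms, a trend on mean expression and Benjamini-Hochberg adjustment over all genes tested. The same step was run on simulated data. That simulation gave all genes the same added noise, so it cannot show whether the pooled variance holds for single genes. Samples were grouped by their titles. The members and lists were chosen with earlier results of these data known, including the intestinal and gastric markers. Values in every library are given for members at least 2-fold apart in a comparison, called by limma or among the 5 highest. Members outside this rule that are given with values, such as IRF9, IFIT2, RIGI and IFI44L, were picked after their values were seen. The alternatives tried were a pseudocount of 0.1, upper quartile and TPM scaling, no filter, a mean of at least 5, a threshold of 1.5-fold, removal of the lowess trend (fraction 0.3) on GC content and length, eBayes without the trend, limma-voom on the fragments, a fit without the other term and leaving out each library. Calculations used scipy 1.17.1, statsmodels 0.14.6, pandas 2.3.3 and numpy 2.4.6 under Python 3.11.15, and plots matplotlib 3.10.9.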

Additional observations from a re-analysis of the deposited data

Results flagged for a closer look

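For 5 members the shRNA difference had opposite signs in the lines, with the counting interval off equality in each. The share of all genes that met the same rule was not counted, so the 5 are not read as special to the members. The values below are the log2 difference, QPRT minus control shRNA, in MDA-MB-468 less that in BT-20. With 1 library per group these differences were not tested, and each compares single cultures. Toward MDA-MB-468 the value was 1.54 for IFI6, which was higher there (1.19) and lower in BT-20 (-0.35). It was 1.32 for IFITM1 (0.91 and -0.41) and 0.61 for IFITM3 (0.37 and -0.25), the neighbouring membrane restriction factors. Toward BT-20 it was -0.67 for EIF2AK2, the kinase PKR, which was lower in MDA-MB-468 (-0.33) and higher in BT-20 (0.34), and -0.36 for LGALS3BP (-0.17 and 0.19). Exons of EIF2AK2 overlap those of GPATCH11 on the opposite strand, and its fragment numbers are approximate. Opposite signs were not special to these members. Over 14232 genes the shRNA difference fell with GC content in BT-20 (rho = -0.27) and rose with it in MDA-MB-468 (rho = 0.28). With the GC and length trend removed, IFI6 was at 1.09 in MDA-MB-468 and -0.23 in BT-20, and EIF2AK2 at -0.21 and 0.09. The part of this trend in the opposite signs was not tested further.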

How the results depend on the processing

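Of the 118 summary values recomputed under an alternative, 100 kept their side or stayed within 1.5 times, and no value past its threshold changed sign. Among 1646 recomputed values of single members 39 changed sign, 24 of them with the GC and length trend removed, and as reported these were at most 0.38 in size. Of the 27 limma line calls of members, 16 were lost in at least 1 fit without a library and 12 also under another alternative. With a mean FPKM of at least 5, which leaves out the low members, the median line difference in the QPRT pair changed sign to -0.33, members 2-fold higher in MDA-MB-468 numbered 4, limma calls numbered 6 toward MDA-MB-468 and 9 toward BT-20, and no member (0) was 2-fold higher with QPRT shRNA in BT-20. Removing the GC and length trend also left 0 there, where SAMD9 and SAMD9L fell to 0.96 and 0.99, and made the split between the lines 6 toward each. With no filter, limma called 6 members toward BT-20. Leaving out 1 library gave 5 to 9 members 2-fold higher in BT-20 (9 without the BT-20 control), and limma calls of 5 to 9 toward BT-20 and 8 to 12 toward MDA-MB-468, with fewer libraries in each fit and the lone library of a line taken to vary like the other line. Toward BT-20 each of the 4 libraries lowered the calls by over 1.5 times, and toward MDA-MB-468 the BT-20 libraries did (8 each). In MDA-MB-468, members higher with QPRT shRNA numbered 5 with a pseudocount of 0.1 and 9 at 1.5-fold. Calls among all 14321 genes tested rose under both settings too, so these larger counts are not read as special to the members. For the shRNA, limma called 1 member, SAMD9, without the trend (adjusted p = 0.0422) and 1, again SAMD9, with voom (adjusted p = 0.00283). The adjusted p of BST2 ran from 0.0569 to 1.00 over the alternatives. The cause of these shifts was not tested beyond what the construction shows. Removing the trend moved the median of all genes by -0.15 in the control line pair. Over all genes the limma shRNA calls, 38 higher and 52 lower, became 0 and 2 after removing the trend and 0 and 0 with no filter. The labels give no replicate numbers to block on, and the limma fit already compares the shRNAs within each line. Depth limits members under about 20 fragments, such as IFI44, CMPK2 and HERC5 in BT-20.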

Other observations

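Some genes of the lists around the members are described above only in part or not at all. SOCS1, which shuts off JAK kinases and is itself induced by interferon, was at 2.15 and 1.35 FPKM in BT-20 with control and QPRT shRNA and at 2.91 and 6.01 in MDA-MB-468. It was thus lower with QPRT shRNA in BT-20 and higher in MDA-MB-468, a difference that was not tested. CXCL10, a chemokine, was at 0 in both BT-20 libraries and at 1.17 and 1.24 FPKM in MDA-MB-468. IFI16, a nuclear DNA sensor, was at 4.56 and 6.31 FPKM in BT-20 and at 0.30 and 0 in MDA-MB-468 (limma -2.48 ± 0.30, adjusted p = 1.72e-15). The kinase TBK1, which activates IRF3, was at 55.4 and 78.8 FPKM in BT-20 and at 24.8 and 27.8 in MDA-MB-468 (-1.30 ± 0.21, adjusted p = 8.11e-09), and IRF3 itself at 178 and 150 against 95.1 and 91.0 (-0.81 ± 0.20, adjusted p = 0.000142).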
